A study of Homo sapiens with 6 samples.

Results

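The genes described here are 9 components of the JAK-STAT pathway through which cells answer interferons, namely the kinases JAK1 and TYK2, the transcription factors STAT2, IRF9, IRF1 and STAT3, and the inhibitors SOCS1, SOCS3 and USP18. They were found on the arrays by the RefSeq accession of each probe, which gave 10 of the 58201 gene probes, with 2 probes for STAT3 and 1 for each other gene, among 22439 genes with a probe named in this way. Their RNA was measured in AGS cells, an established line from a human gastric adenocarcinoma, with one-colour Agilent arrays. The question was how the transcriptome differs when C1GALT1, the galactosyltransferase that makes the core 1 O-glycan, is silenced.

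Both groups received siRNA by lipid transfection and were harvested at 48 h. The si-Control group received a nontargeting siRNA and the si-C1GALT1-3 group received 1 siRNA against C1GALT1, with 3 samples and 3 arrays in each group. With 1 siRNA, loss of its target and any other action of that sequence cannot be told apart. Arrays with the same replicate number shared a slide, with si-Control always in array column 1 and si-C1GALT1-3 in column 2, so position on the slide and treatment cannot be told apart. No label says that the samples of a group came from separate cultures, so the p-values measure the spread between these samples, which may be technical.

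In the pathway, an interferon bound to its receptor activates receptor-bound kinases of the JAK family, JAK1 and TYK2 for type I interferons. These phosphorylate STAT proteins. STAT2 enters the complex ISGF3, in which IRF9 reads the interferon-stimulated response element (ISRE) in front of antiviral genes, whereas other STAT dimers read the gamma-activated site (GAS), which also drives IRF1. SOCS1, SOCS3 and USP18 are made in response to the signal and stop it at the kinases or at the receptor.

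The RefSeq promoter windows of the members (build GRCh38.p14, 250 bases before to 50 bases after a transcription start) were searched for exact letters of both elements on both strands. The ISRE was written as GAAA, any 2 bases and GAAA, which is TTTC, any 2 bases and TTTC on the other strand, and the GAS as TTC, any 3 bases and GAA, which reads the same on both strands. A window was given for 8 of the 9 genes, 11 windows in all, and none for USP18. A GAS match lay in the windows of IRF1 and IRF9 and an ISRE match in that of SOCS1. Among 35116 promoter windows of this length, 7.66% held a GAS match and 3.57% an ISRE match. These 3 windows are shown because they hold the letters of an element that the pathway reads. Each runs from 5′ to 3′ on the strand of the gene, with the match in capitals.
IRF1, chr5:132490724-132491023, minus strand: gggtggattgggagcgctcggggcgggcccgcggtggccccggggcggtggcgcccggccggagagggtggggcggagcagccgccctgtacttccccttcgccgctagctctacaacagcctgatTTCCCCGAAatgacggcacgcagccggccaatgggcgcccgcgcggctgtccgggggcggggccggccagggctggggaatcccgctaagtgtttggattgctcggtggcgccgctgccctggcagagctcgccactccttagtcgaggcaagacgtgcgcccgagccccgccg
IRF9, chr14:24161015-24161314, plus strand: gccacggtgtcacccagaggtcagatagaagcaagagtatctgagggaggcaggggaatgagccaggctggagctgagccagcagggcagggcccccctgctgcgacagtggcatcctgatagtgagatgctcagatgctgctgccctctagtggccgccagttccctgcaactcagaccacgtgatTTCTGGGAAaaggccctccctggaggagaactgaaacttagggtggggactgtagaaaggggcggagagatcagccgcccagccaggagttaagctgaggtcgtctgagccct
SOCS1, chr16:11256155-11256454, minus strand: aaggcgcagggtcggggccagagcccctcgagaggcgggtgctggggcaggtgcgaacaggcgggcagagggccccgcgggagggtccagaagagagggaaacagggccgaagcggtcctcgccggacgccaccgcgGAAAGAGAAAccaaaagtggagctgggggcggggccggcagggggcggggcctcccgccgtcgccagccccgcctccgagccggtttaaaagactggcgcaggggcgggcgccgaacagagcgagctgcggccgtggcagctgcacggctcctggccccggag
The matches span bases -124 to -116 from the start in IRF1, -63 to -55 in IRF9 and -113 to -104 in SOCS1. A match describes the letters only, and no binding was measured in these samples.

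All values below are normalized log2 signals, that is log2 of the scanner's processed fluorescence after quantile normalization over the 6 arrays, and differences are si-C1GALT1-3 minus si-Control on that scale, so that 1 is 2-fold. A gene was called changed at limma p under 0.01 and at least 2-fold, with p adjusted by Benjamini-Hochberg across every probe tested. An exact permutation test of 3 against 3 samples cannot go below 0.10, so p-values are those of limma, which borrows the spread across probes. Of 58195 probes tested, 1538 (2.64%) passed, 961 higher and 577 lower in si-C1GALT1-3, and 49 probes had an adjusted p under 0.05, the lowest 0.0499. That last count was 0 in each of the 6 fits without 1 array, with the low-signal region kept, with outlier spots kept, with a trend and robust prior and with the slide as a block, 429 with normexp and 545 with dim probes left out. The low-signal region of si-Control replicate 2, with 9712 gene spots (15.9% of that array), was set to missing. With those spots kept, 1180 probes passed and the higher share of them was 40.2% in place of 62.5%, and it was 72.6% without normalization between arrays. On each array 66.2% to 72.7% of gene spots were well above background and no gene spot was saturated. All 5 epithelial markers (EPCAM, KRT8, KRT18, KRT19 and CLDN4) were well above background on all 6 arrays and none was called. Of the leukocyte, fibroblast and endothelial markers, none was called, though probes for the leukocyte genes PTPRC, CD3E and CD14 and the endothelial gene CDH5 were also well above background on all 6 arrays, and those for COL1A1, PDGFRB and VWF on all 5 arrays left after the low-signal region was removed. PDGFRB differed by -0.81 (SE 0.19, limma adjusted p = 0.207) and VWF by -1.03 (SE 0.29, limma adjusted p = 0.257), with groups that did not overlap, and their part in other results was not tested.

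C1GALT1 itself measured 12.22, 13.03 and 12.62 in si-Control replicates 1, 2 and 3 and 11.76, 11.98 and 11.13 in si-C1GALT1-3. The groups did not overlap, with the si-C1GALT1-3 arrays lower. The difference of -1.0 (SE 0.31) had a limma p of 0.0193 (adjusted p = 0.265) and so missed the threshold.

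None of the 9 genes passed p under 0.01 and 2-fold in limma, against 2.64% of all probes, and none passed in the methods' t-test, a test the study names for comparing groups, though it names limma for the arrays. The study's own list of selected differentially expressed genes holds STAT2 and IRF1, and why these results differ was not tested. At p under 0.05 there were 5 (STAT2, IRF1, IRF9, JAK1 and USP18), against 13.8% of all probes, and 4 in the methods' t-test. This count was 3 without si-C1GALT1-3 replicate 1 or 2, and 2 with the low-signal region kept or without normalization between arrays. The count over all probes, 8027 in the main fit, was also lower in these fits. It was 6465 in the methods' t-test, and 5276 and 5341 without si-C1GALT1-3 replicates 1 and 2. With the low-signal region kept it was 6227, and without normalization between arrays 3747. The 13.8% takes in dim probes and probes without a gene symbol, whereas the 9 genes were well above background. With dim probes left out, 6891 of 38659 probes had p under 0.05. With the mean over the probes of a gene, 3757 of 22438 genes had. Both are larger shares, and 5 of the 9 genes had p under 0.05 in both settings. At p under 0.01 whatever the size there were 3, against 4.69% of all probes, with IRF1 and USP18 higher and JAK1 lower, against 2.86% of probes higher and 1.83% lower. In 5 genes (STAT2, IRF1, IRF9, TYK2 and USP18) every si-C1GALT1-3 array was above every si-Control array, against 11% of all probes, and in JAK1 every one was below, against 10.4%. Within slides, 6 genes were higher on all 3 slides (these 5 and STAT3), against 22.3% of probes with values on all arrays, and JAK1 was lower on all 3, against 21.8%. The median difference over the 9 genes was 0.34, beside 0.00 over all probes, and it was 0.19 without si-Control replicate 1 and 0.68 without si-C1GALT1-3 replicate 3. All 6 arrays measured all 10 probes well above background, and none lay in the low-signal region.

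**Figure D1:**
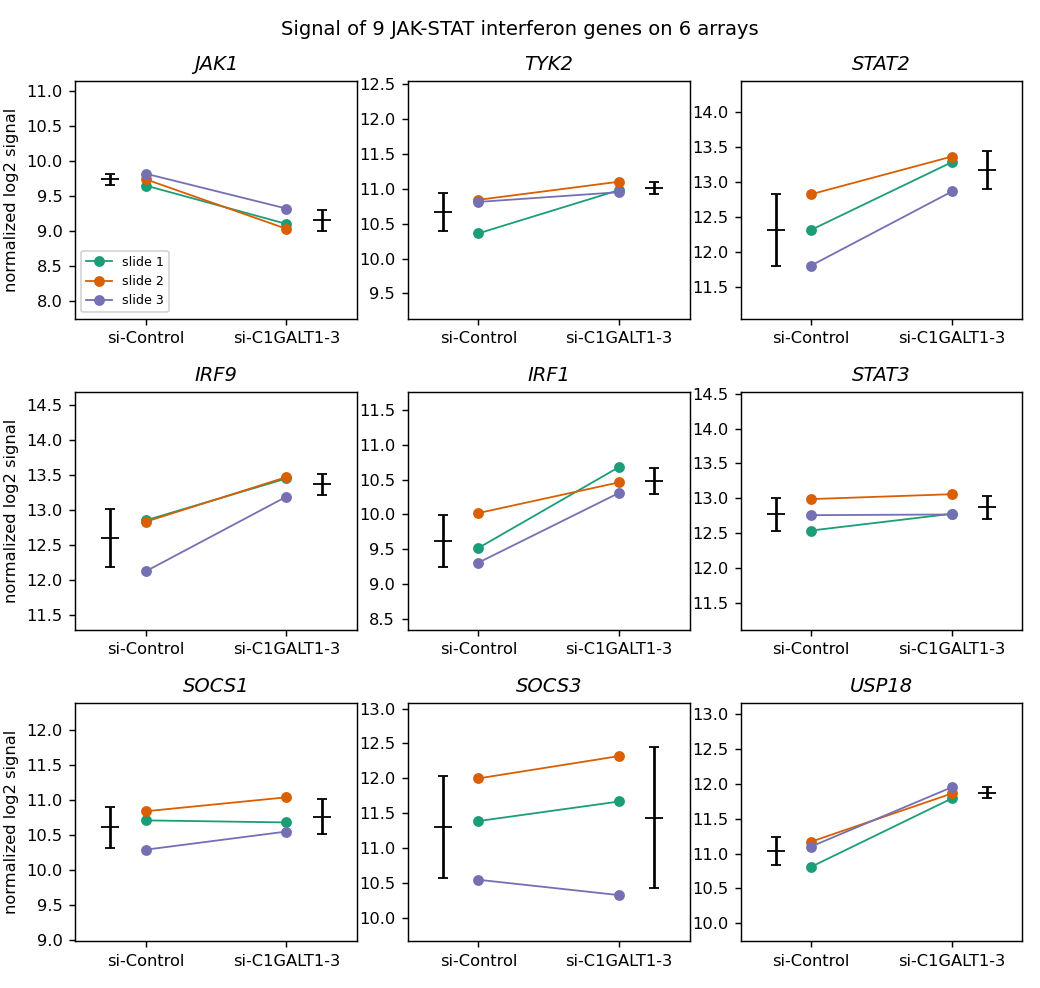
Normalized log2 signal of the 9 genes on each array, one panel per gene, with a line joining the si-Control and si-C1GALT1-3 arrays of 1 slide and bars giving the mean and SD of 3 arrays beside each group. All panels span the same number of log2 units. STAT2, IRF1, IRF9, TYK2 and USP18 are higher and JAK1 lower on all si-C1GALT1-3 arrays, while SOCS3 separates by slide.

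The receptor-bound kinases JAK1 and TYK2 lay on opposite sides. JAK1, the kinase shared by type I, type II and interleukin-6 family receptors, measured 9.65, 9.74 and 9.82 in si-Control and 9.10, 9.03 and 9.32 in si-C1GALT1-3. The groups did not overlap, and JAK1 was the one member that was lower in si-C1GALT1-3. Its difference was -0.59 (SE 0.14, 95% interval -0.93 to -0.24), 1.5-fold lower, with a limma p of 0.00647 and adjusted p = 0.188. Within slides 1, 2 and 3 the difference was -0.55, -0.71 and -0.50. Over 17 other settings the JAK1 difference ranged from -0.74 to -0.45, with p under 0.01 in 7 of them. Its pooled SD within groups was 0.12, a spread that 95% of 29861 probes well above background on all arrays reached or exceeded.

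TYK2, the kinase bound to IFNAR1, measured 10.36, 10.84 and 10.81 in si-Control and 10.98, 11.10 and 10.95 in si-C1GALT1-3. The groups did not overlap, with a gap smaller than the si-Control SD of 0.27. The difference was 0.34 (SE 0.18, 95% interval -0.10 to 0.78), with a limma p of 0.105 and adjusted p = 0.466. Slide 1 gave 0.62, slide 2 gave 0.27 and slide 3 gave 0.14, and without si-Control replicate 1 the fitted difference was 0.19.

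The 3 transcription factors STAT2, IRF9 and IRF1 had similar differences, between 0.77 and 0.87. STAT2, the DNA-complex partner of IRF9, measured 12.32, 12.83 and 11.81 in si-Control and 13.29, 13.37 and 12.87 in si-C1GALT1-3. The lowest si-C1GALT1-3 array exceeded the highest si-Control array by a small margin, and the si-Control arrays spread over a whole log2 unit. The difference was 0.86 (SE 0.30, 95% interval 0.11 to 1.60), 1.81-fold, with a limma p of 0.0307 and adjusted p = 0.308. Within slides it was 0.96, 0.55 and 1.06. With the slide as a block its SE fell to 0.16 and its limma p to 0.00814 (adjusted p = 0.197), still under 2-fold.

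IRF9, the DNA-binding subunit of ISGF3, measured 12.85, 12.83 and 12.12 in si-Control and 13.45, 13.47 and 13.19 in si-C1GALT1-3. Both groups had their lowest array on slide 3, and they did not overlap. The difference was 0.77 (SE 0.24, 95% interval 0.17 to 1.37), 1.71-fold, with a limma p of 0.0206 and adjusted p = 0.271. The slides gave 0.59, 0.65 and 1.07.

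IRF1, a transcription factor whose own gene is a classical interferon target, measured 9.52, 10.02 and 9.31 in si-Control and 10.68, 10.46 and 10.31 in si-C1GALT1-3. The groups did not overlap, and si-Control replicate 2 came closest to the si-C1GALT1-3 arrays. The difference was 0.87 (SE 0.23, 95% interval 0.30 to 1.43), 1.82-fold, with a limma p of 0.00986 and adjusted p = 0.213. Within slides it was 1.15, 0.44 and 1.00, and with the slide as a block the limma p was 0.0148 (adjusted p = 0.218). Over 17 other settings the IRF1 difference ranged from 0.71 to 1.07, with p under 0.01 in 5 of them. IRF1 and IRF9 carry the GAS match shown above, and so does 7.66% of all windows.

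The calls on STAT2 and IRF1 turned on 1 array. Without si-Control replicate 2, which had the highest si-Control signal for both genes, STAT2 gave 1.11 (a limma p of 0.00888) and IRF1 gave 1.07 (a limma p of 0.0026), and both passed the threshold. Over the 6 fits that left out 1 array, STAT2 ranged from 0.60 to 1.11, IRF1 from 0.71 to 1.07 and IRF9 from 0.53 to 0.90. With the low-signal region kept, the limma p of STAT2, IRF1 and IRF9 was 0.0778, 0.0731 and 0.0555, although no probe of these genes lies in it.

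STAT3, which carries interleukin-6 family signals, gave no detectable difference. Its brighter probe measured 12.54, 12.99 and 12.76 in si-Control and 12.78, 13.06 and 12.77 in si-C1GALT1-3. The groups overlapped. The difference was 0.10 (SE 0.18, 95% interval -0.33 to 0.54), with a limma p of 0.584 and adjusted p = 0.865, so the interval leaves out a 2-fold change in either direction. The second STAT3 probe gave 0.12 (SE 0.20), with slide differences of 0.18, -0.07 and 0.25 against 0.23, 0.06 and 0.01 for the first.

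**Figure D2:**
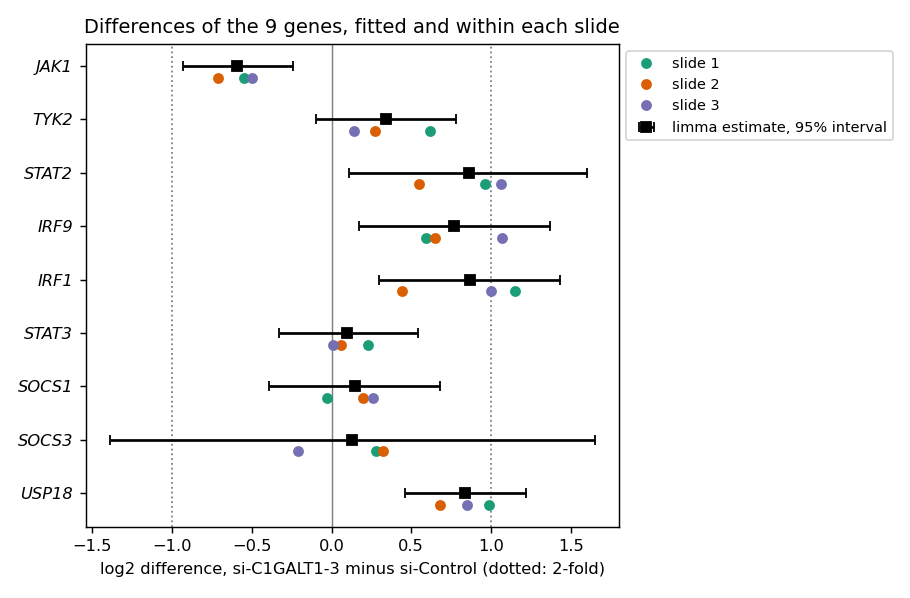
Log2 difference between si-C1GALT1-3 and si-Control for the 9 genes. Squares are limma estimates with 95% intervals, circles are the differences within slides 1, 2 and 3, and dotted lines mark 2-fold. Intervals of JAK1, STAT2, IRF9, IRF1 and USP18 leave out 0, and no estimate reaches 2-fold.

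Among the inhibitors, the groups did not overlap for USP18 and overlapped for SOCS1 and SOCS3. None of them passed the threshold, and differences between these genes were not tested. USP18, the ISG15 protease that also binds IFNAR2 and displaces JAK1, measured 10.81, 11.17 and 11.10 in si-Control and 11.79, 11.86 and 11.95 in si-C1GALT1-3. The groups were clear of each other. The difference was 0.84 (SE 0.15, 95% interval 0.46 to 1.22), 1.79-fold, with a limma p of 0.00179 and adjusted p = 0.129, the smallest p of the 9 genes. Within slides it was 0.99, 0.68 and 0.85. It stayed between 0.73 and 0.96 over 17 other settings, with p under 0.01 in 15 of them and 2-fold in 0.

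SOCS1, which blocks the kinase domain of JAK proteins, measured 10.71, 10.84 and 10.29 in si-Control and 10.68, 11.04 and 10.55 in si-C1GALT1-3. The groups overlapped, with slide 3 lowest in both. The difference was 0.15 (SE 0.22, 95% interval -0.39 to 0.68), with a limma p of 0.53 and adjusted p = 0.833. Its window holds the ISRE match shown above.

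SOCS3, which acts mainly on receptors of the interleukin-6 family, measured 11.39, 12.00 and 10.55 in si-Control and 11.67, 12.32 and 10.33 in si-C1GALT1-3. The arrays ordered by slide in both groups, with slide 2 highest and slide 3 lowest. The difference was 0.13 (SE 0.61, 95% interval -1.39 to 1.65), with a limma p of 0.843 and adjusted p = 0.967, so this interval does not leave out a 2-fold change either way. With the slide as a block the SE was 0.17 and the 95% interval -0.36 to 0.62. The pooled SD of SOCS3 within groups, 0.88, was reached by 1.47% of the 29861 probes.

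Slide 3 gave the lowest signal in both groups for 5 of the 9 genes (STAT2, IRF1, IRF9, SOCS1 and SOCS3). This held for 21.3% of the probes well above background on all arrays. Of 15 known STAT3 target genes measured on all 6 arrays it held for 11. A difference taken within a slide removes only the part of this shift that both arrays of the slide share. What sets slide 3 apart was not tested.

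**Figure D3:**
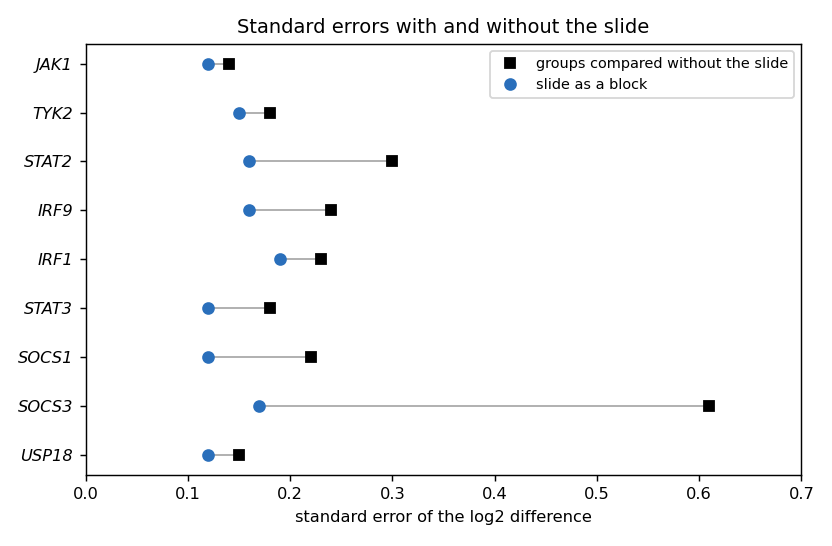
Standard error of the log2 difference for the 9 genes, comparing the groups without the slide (squares) and with the slide as a block (circles). The error of SOCS3 goes from 0.61 to 0.17 and that of STAT2 from 0.30 to 0.16, whereas JAK1 goes from 0.14 to 0.12.

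Over the 6 arrays, the genes whose pattern was nearest to that of STAT2 among 18649 probes for 14780 genes were PRODH, ARL6IP6 and DOCK9, with Pearson's r of 0.9988, 0.9987 and 0.9976. Their differences were 0.87, 0.80 and 0.39. The 6 points share slides and groups, and the 3 nearest genes of each other member had r of 0.9894 or more.

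The steps around the 9 genes were described with lists of genes, each gene with its brightest probe. Of the listed genes, UBE2L6, ISG15, OSMR and IL6ST stand in more than 1 list, and PTPRC is both a listed regulator and a leukocyte marker. Upstream, 2 of 11 interferon and interleukin-6 family ligands rose, against 1.65% of all probes, and none fell, against 0.991%. Their median difference was 0.47, but 0.19 without si-C1GALT1-3 replicate 1 and 0.14 with the mean over the probes of a gene. With the slide as a block 3 ligands rose, IFNL3 among them, and without si-Control replicate 3 there was 1 that fell. IFNL3 was well above background on 2 of 3 si-Control arrays and on all 3 of si-C1GALT1-3. IFNB1, the beta interferon, measured 6.94, 6.96 and 7.11 in si-Control and 8.83, 8.09 and 8.55 in si-C1GALT1-3, a difference of 1.49 (SE 0.22, limma adjusted p = 0.0961). IFNE, the epithelial epsilon interferon, differed by 1.34 (SE 0.20, limma adjusted p = 0.0979). With the low-signal region kept, or with another background correction (normexp), 1 of the 11 ligands passed. IFNG was not above background on any array.

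Of 10 receptor chains, 1 rose, against 1.65% of all probes, and none fell, with a median of 0.34 that was 0.19 with the low-signal region kept. This was IFNGR1, the ligand-binding chain for interferon gamma, at 11.87, 11.97 and 12.01 in si-Control and 13.07, 12.81 and 13.28 in si-C1GALT1-3, a difference of 1.11 (SE 0.16, limma adjusted p = 0.0979). It did not pass without si-C1GALT1-3 replicate 3. The type I receptor chains were IFNAR1, at 0.65 (SE 0.39), and IFNAR2, at 0.03 (SE 0.28), and neither passed.

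Of the 23 other genes of the STAT, IRF, JAK, SOCS and PIAS families, none passed in limma, 8 had p under 0.05 (6 higher and 2 lower), against 13.8% of all probes, and the median was 0.33. The lower ones include IRF4, not well above background on any array, and the higher ones IRF8, well above background on 1 of 3 si-Control arrays. In 5 other settings, among them the one without si-Control replicate 2, 1 of them rose, and without si-C1GALT1-3 replicate 1 there was 1 that fell. The median was 0.17 without si-Control replicate 1 and 0.52 with the low-signal region kept. The probes of 11 of them lay in the low-signal region and so had 2 si-Control values. Of 11 other listed regulators of the pathway, mostly phosphatases and ubiquitin-like modifier enzymes, 1 rose, against 1.65% of all probes, none fell, and the median was 0.12, between 0.04 and 0.20 without 1 array and -0.01 with the low-signal region kept. With the slide as a block 1 also fell, SH2B3, an adaptor that restrains JAK signals, whose probe has 2 si-Control values. The gene that rose was UBE2L6, the conjugating enzyme that attaches ISG15, the protein USP18 removes. It measured 11.50, 11.22 and 10.70 in si-Control and 13.09, 12.87 and 12.32 in si-C1GALT1-3, a difference of 1.62 (SE 0.30, limma adjusted p = 0.13), and is also one of the ISGF3-type genes that rose.

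Downstream, 20 of the 38 measured interferon-stimulated genes of the ISGF3 type (52.6%) rose, against 1.65% of all probes, and none fell. This list, like the others, was chosen with earlier results of these data known, so the contrast is a description only. The median difference of the 38 genes was 1.03, beside 0.00 over all probes. Of them, 23 exceeded the largest difference among the 9 pathway genes, a count with no share of all probes beside it. Both counts include TRIM22, well above background on 0 of 3 si-Control arrays, and RTP4, on 1 of 3, which met that level on all 3 arrays of si-C1GALT1-3 alone. OAS2, which makes the activator of RNase L, went from 8.62, 9.35 and 8.82 to 11.63, 11.67 and 11.40, a difference of 2.63 (SE 0.23, limma adjusted p = 0.0499). IFI35 differed by 2.60 (SE 0.27, limma adjusted p = 0.0688). BST2, the tether that holds budding virus at the surface, differed by 2.47 (SE 0.21, limma adjusted p = 0.0499). With the low-signal region kept, 13 of the list passed.

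Of 20 genes read through GAS or IRF1, 1 rose, against 1.65% of all probes, and 1 fell, against 0.991%. The median was 0.31, but 0.11 without si-Control replicate 1, and without si-Control replicate 3 there were 2 that rose. GBP1, an interferon-induced GTPase, measured 4.27, 5.93 and 4.41 in si-Control and 8.74, 8.37 and 7.94 in si-C1GALT1-3 and was the gene that rose (limma adjusted p = 0.094). Its probe was well above background on 1 of 3 si-Control arrays and entered by its si-C1GALT1-3 arrays, so the fitted difference of 3.48 (SE 0.50) rests partly on signals near background. CIITA, the activator of MHC class II genes, fell by 1.06 (limma adjusted p = 0.116), with 2 si-Control arrays left after the low-signal region was removed. That call was lost with the slide as a block and in 5 other settings.

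Of 16 STAT3 targets, none rose, against 1.65% of all probes, 1 fell, against 0.991%, and the median was 0.01, between -0.26 (without si-Control replicate 3) and 0.17 over the fits without 1 array. CCND1, cyclin D1, measured 12.91, 13.30 and 14.24 in si-Control and 11.31, 11.54 and 12.44 in si-C1GALT1-3, a difference of -1.72 (SE 0.45, limma adjusted p = 0.213). The call did not hold in the methods' t-test, in the series table or in 3 of the 6 fits without 1 array. Within slides the difference was -1.59, -1.77 and -1.80, and with the slide as a block its SE was 0.12 (limma p of 0.000264). In that fit, 2 STAT3 targets fell and 1 rose.

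**Figure D4:**
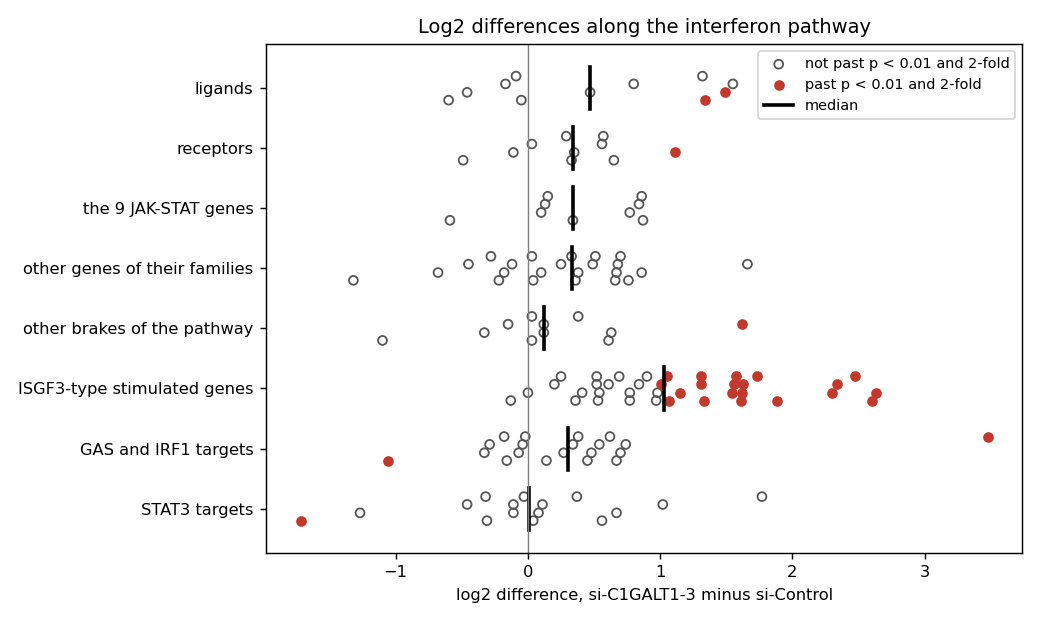
Log2 difference between si-C1GALT1-3 and si-Control for each gene, by step of the pathway. Red points passed p under 0.01 and 2-fold, open points did not, and the black bar is the median of the list. The 9 JAK-STAT genes have a median of 0.34 (0.19 to 0.68 without 1 array) and the ISGF3-type genes one of 1.03.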

How the data were processed

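RNA from AGS cells was labelled and hybridized to one array per sample. The authors deposited the fluorescence intensity of each spot from Agilent Feature Extraction, version 10.5.1.1, corrected for background and not normalized between arrays. Their series table gives each spot's intensity less its background. Each array had 60901 gene spots, and the number of arrays limits the precision.

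From these, log2 values of the processed signal were taken. Control spots were left out. Spots marked as outliers (100 to 424 per array) and the low-signal region of si-Control replicate 2 (lines 113 to 288, columns 59 to 115) were set to missing. Arrays were quantile normalized, spots of a probe averaged, and groups compared with limma version 3.58.1 in R version 4.3.3, with no covariate. Probes were named by accession with a RefSeq gene table (GRCh38.p14), a build other than that of the array files. For a gene with several probes the brightest was used. The procedure was tested on simulated data.

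The members and lists were chosen with earlier results of these data known. Named genes are C1GALT1, the 9 members, the 3 largest rises and falls per list among genes that passed and bright on all 3 arrays of a group (above background), the pattern neighbours of STAT2, and the epithelial markers. PTPRC, CD3E, CD14, CDH5, COL1A1, PDGFRB, VWF, IFNG, IFNL3, SH2B3, TRIM22, RTP4, IRF4, IRF8, ISG15, OSMR, IL6ST, IFNAR1 and IFNAR2 were chosen after their values were seen. The ISGF3-type list had 40 genes, 38 of them measured.

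The scanner files place same-numbered arrays on 1 slide, and their deviations from the group means correlated at 0.20, 0.214 and 0.318, against -0.20 to 0.016 for other pairs. The slide was therefore run as a block, as an alternative. Other alternatives were no mask, the 75th percentile or no normalization, normexp with an offset of 50 on median signals, the series table with a floor of 10, outlier spots kept, dim probes left out, a trend and robust prior, the methods' t-test (two-sided, equal variance; named in the study's general statistics, with limma named for the arrays), the mean over the probes of a gene, and leaving out each array.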

Additional observations from a re-analysis of the deposited data

How the results depend on the processing

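Between settings, the direction of STAT2, IRF1, IRF9, TYK2 and USP18 (higher) and JAK1 (lower) did not change in any of 17 alternatives. No member passed p under 0.01 and 2-fold in 16 of them; without si-Control replicate 2, 2 passed, so that the count ranged from 0 to 2 over the fits without 1 array. The number of members with p under 0.01 whatever the size, 3 as reported, was 0 with no mask and 0 without normalization between arrays, 1 with the 75th percentile and 1 to 3 over the fits without 1 array. With the replicate block, that is the slide, it was 3, with STAT2 in place of IRF1. Over these fits STAT3 ranged from -0.01 to 0.22, SOCS1 from -0.02 to 0.26 and SOCS3 from -0.31 to 0.68. The sign turned for STAT3 without si-Control replicate 1 (-0.01), for SOCS1 without si-Control replicate 3 (-0.02), and for SOCS3 without si-Control replicate 3 (-0.26) and without si-C1GALT1-3 replicate 2 (-0.31). Over all probes the count past the threshold, 1538, was 920 with normexp, 896 in the methods' t-test and 1134 to 1818 without 1 array. The 75th percentile moved the median over all probes to -0.11. The cause of these differences was not tested. Adjusted p stayed at 0.0824 or above for every member in every setting.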
